A study of Mus musculus with 7 samples.

Results

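The genes that bring pyruvate into mitochondria and run the tricarboxylic acid (TCA) cycle were followed in brown fat of the interscapular depot, a thermogenic tissue, of mice with and without PGAM5. The set was a named list of 33 genes, looked up by symbol among the 53715 gene identifiers of the deposited count table, and all 33 were found and passed the filter on low counts. Of these, 15 act on pyruvate entry (carrier, pyruvate dehydrogenase with its kinases and phosphatases, pyruvate carboxylase) and 18 in or around the cycle. Wild-type mice (WT) and mice labelled PGAM5 KO (KO) were males of the C57BL/6J strain, 10 weeks old, with no treatment in the labels of either group. Poly(A) RNA of frozen tissue was sequenced, and 3 WT and 3 KO libraries were analysed. The labels do not state that each library came from its own animal, so p-values measure the spread between these samples, which may be technical. A further KO sample in the labels was not analysed here. PGAM5 is a phosphatase of mitochondria, and how the gene was deleted is not given in the sources used here.

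Pyruvate made by glycolysis crosses the inner mitochondrial membrane through the carrier MPC1-MPC2. Inside, the pyruvate dehydrogenase complex turns it into acetyl-CoA and is switched off by kinases (PDK) and on by phosphatases (PDP), while pyruvate carboxylase turns pyruvate into oxaloacetate and so refills the cycle. Brown fat oxidises fatty acids and glucose at high rates to make heat, and it also uses citrate from the cycle to make fatty acids.

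Total counts were 18034204 to 33617762 per library. The adipocyte markers Ucp1, Cidea, Prdm16, Ppargc1a, Cox7a1, Pparg, Adipoq, Fabp4 and Plin1 were all detected. Their summed levels were 13636 to 16951 in WT and 15572 to 17871 in KO as CPM (counts scaled to a common library size). Fabp4 alone gave 5714 to 10568 CPM of these sums, which hide opposite directions of single markers. Ucp1 averaged 2297 CPM over WT libraries and 4782 over KO libraries, without overlap. WT 2 was its lowest library (1638 CPM) and KO 3 its highest (5974 CPM). The log2 fold change of Ucp1 came to 1.06 (SE 0.28), with an edgeR adjusted p of 0.31. Pparg was lower in each KO library than in any WT library (log2 -0.28). Of all tested genes, 10.1% lay above WT in every KO library, as Ucp1 did, and 9.39% below, as Pparg did. Of the 9 markers 3 had positive log2 fold changes, and 0 passed the threshold given below. Counts of Pgam5 were 167, 122 and 186 in the WT libraries and 1, 3 and 11 in the KO libraries (log2 fold change -4.84, SE 0.59, edgeR adjusted p = 0.0243). Genes of the mitochondrial genome took 30.3% to 43.0% of WT counts and 19.7% to 34.1% of KO counts, with the highest share in WT 2 and the lowest in KO 3. These libraries also stood apart on the first principal component of all genes, at -65.0 and 66.8 against -13.0 to 8.23 for the other 4. Summed CPM of skeletal muscle markers ran from 67.7 to 124 in WT and from 61.0 to 102 in KO, white adipocyte markers at 100.4 to 227 and 68.8 to 125 CPM, and macrophage markers at 71.3 to 115 and 53.2 to 96.8 CPM. Endothelial markers were at 246 to 449 and 319 to 678 CPM, erythrocyte markers at 722 to 901 and 499 to 758 CPM, and T, NK and B cell markers at 1.80 to 4.00 and 3.71 to 6.00 CPM. No marker of these lists was at 0 in all libraries. Myl1 made up most of the muscle sum in every library (56.8 to 97.5 CPM), so the sum hides the other markers. Myh4 reached 11.8 CPM for WT 3 and 12.1 CPM for KO 2 but 0.273 to 2.13 CPM elsewhere. Acta1 reached 10.8 and 8.45 CPM there and 0.455 to 2.67 CPM elsewhere. Ckm, Tnnt3, Atp2a1, Actn3 and Pvalb were also highest in these libraries, while Mylpf, Myh1, Myh2 and Tnnc2 did not share this order. In bulk tissue, fewer cells of a type and less RNA per cell cannot be told apart.

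None of the 33 genes differed between KO and WT past the threshold, an adjusted p of 0.05 by the edgeR quasi-likelihood test over all 15123 genes tested. The count was 0 higher and 0 lower, against 0.0198% of all tested genes called higher, 0.0397% called lower and 0.0595% called either way, and the adjusted p of the 33 genes ran from 0.388 to 0.957. DESeq2 and limma-voom also called 0 of the 33, with 3 and 1 of them at an unadjusted p under 0.05. At an unadjusted p under 0.05 edgeR gave 2 genes, Pdk4 and Got2, both with lower means in KO, and 0 with higher means; of all tested genes 11.8% lay under that value, 5.49% lower and 6.3% higher. Mpc2 lay above WT in every KO library and Pdk4 below it, which happened to 10.1% and 9.39% of all tested genes. Log2 fold changes (KO minus WT) ran from -0.60 for Pdk4 to 0.76 for Pcx, with a median of 0.14, against -0.0019 over all tested genes, and 22 of 33 were positive, against 49.8%.

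The unadjusted 95% interval of the log2 fold change lay between -1 and 1 for 27 of the 33 genes (81.8%, against 56.7% of all tested genes), among them all 12 matrix enzymes of the cycle and all 5 subunits of pyruvate dehydrogenase. For the other 6, Pdk3, Pdk4, Pdp1, Pcx, Aco1 and Got2, it reached past 1 in one direction. The narrowest belonged to Suclg2 (-0.29 to 0.38) and the highest upper end to Pcx (1.6). The share over all tested genes was not matched to the expression levels of the 33 genes, so it does not rank the set as steady.

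**Figure D1:**
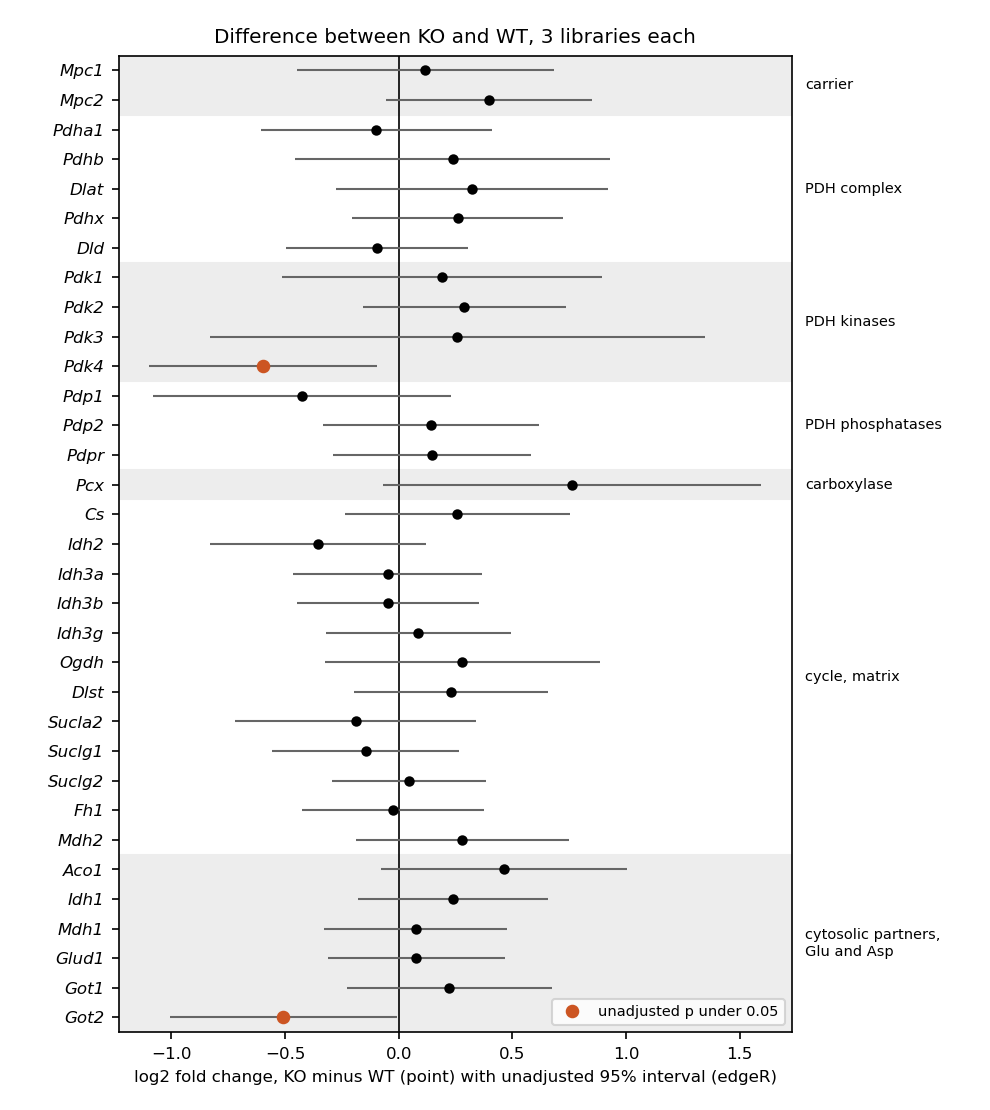
Log2 fold change of each gene, KO minus WT, as a point with its unadjusted 95% interval from edgeR (3 libraries in each group); genes stand in the order of their roles on the vertical axis. Of the 33 intervals 31 include 0, and the orange points mark Pdk4 and Got2.

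Levels spanned a wide range when set per length, as TMM-scaled CPM per kilobase of exon. The highest mean over the 6 libraries was that of Pdk4 (542), followed by Sucla2 (418), Ogdh (414), Cs (320) and Idh3b (314). The lowest were Pdk3 (0.525), Pdp1 (1.78), Got2 (5.08) and Got1 (7.33). The matrix enzymes of the cycle lay within a narrower band, from 105 for Dlst to 418 for Sucla2, except Suclg2 at 27.9. Lengths were those of all annotated exons joined, so a gene with long rarely used exons reads low on this scale.

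**Figure D2:**
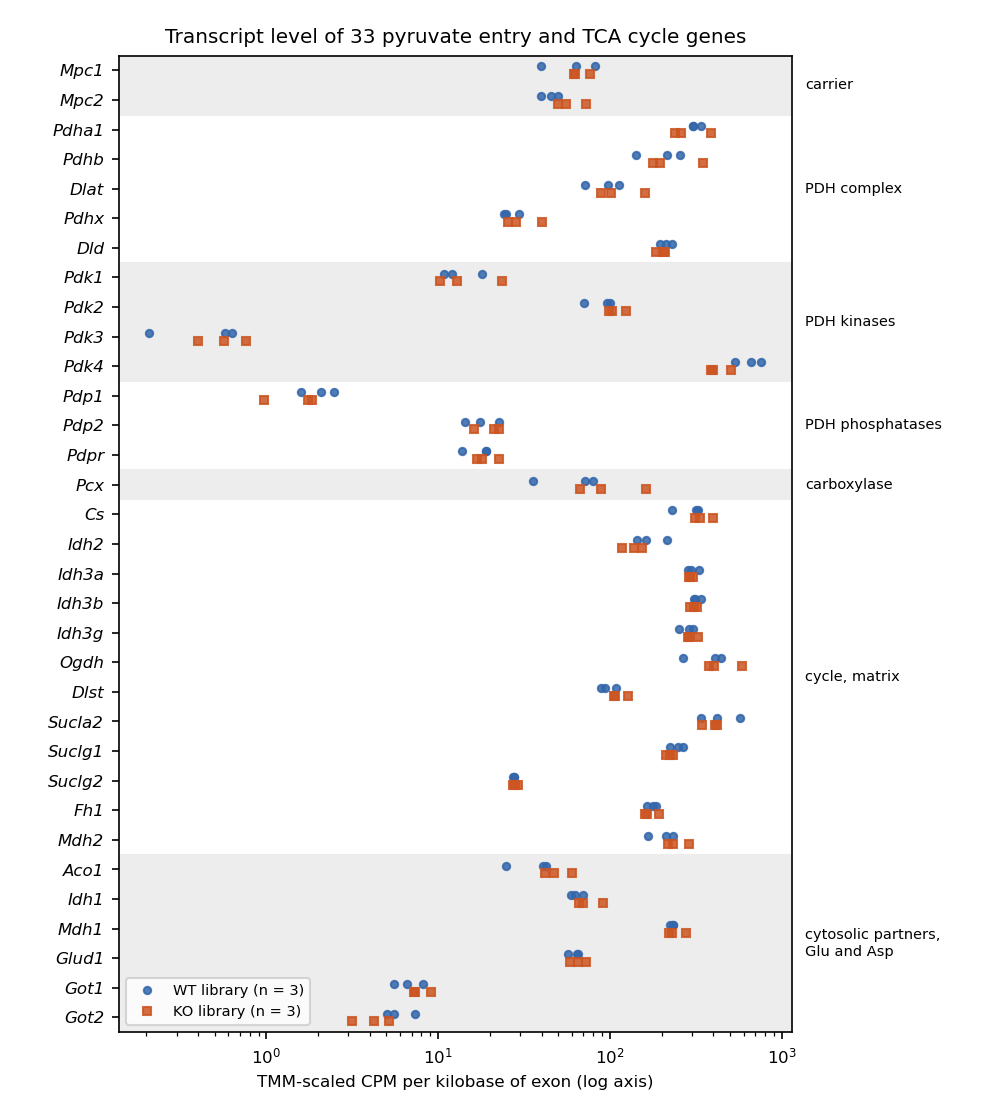
TMM-scaled CPM per kilobase of exon on a log axis for each of the 33 genes, with 1 point per library (blue circles WT, orange squares KO, 3 each). Points of the 2 groups interleave for 31 genes, and the gap between genes, from 0.525 to 542 in mean level, far exceeds the gap between groups.

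The pyruvate carrier genes showed no called difference. Mpc2, a carrier subunit, was at 364, 292 and 335 CPM in WT and 408, 366 and 532 CPM in KO. Its lowest KO library lay just above its highest WT library, and KO minus WT was 0.40 as a log2 difference (SE 0.20). It was not called (edgeR adjusted p = 0.453), and it was 0.23 without KO 3 and 0.15 without both WT 2 and KO 3. Mpc1, the partner subunit, was at 171, 82.9 and 133 CPM in WT and 131, 128 and 160 CPM in KO, with overlapping groups (log2 0.12, SE 0.25). A processed pseudogene, Mpc1-ps, matches Mpc1 at 99.4% over 330 bases and held 27401 counts in all, against 19108 for Mpc1, so reads of Mpc1 could be shared with it. Mpc1-ps itself averaged 179 CPM for WT (SD 54.5) against 207 CPM for KO (SD 41.1), with n = 3 for both.

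Of the 5 subunit genes of the pyruvate dehydrogenase complex, 0 passed the test, 3 had a higher and 2 a lower mean in KO, and the log2 fold changes ran from -0.10 to 0.32. Pdha1, the catalytic E1 alpha subunit that the kinases phosphorylate, was at 1265, 1142 and 1132 CPM in WT and 896, 968 and 1439 CPM in KO. Its 3 KO libraries lay on both sides of all WT libraries (log2 -0.10, SE 0.23, edgeR adjusted p = 0.863). Pdhb, the E1 beta subunit, was at 986, 545 and 833 CPM in WT and 691, 752 and 1345 CPM in KO. WT 2 was the lowest and KO 3 the highest, and the groups overlapped (log2 0.24, SE 0.31). Dlat, the acetyltransferase core E2, also had WT 2 lowest and KO 3 highest, with log2 0.32 (SE 0.27), and Pdhx, which binds E3 to the core, had log2 0.26 (SE 0.21). Dld, the E3 subunit shared with other dehydrogenases of the matrix, varied least of the 5, from 683 to 851 CPM (log2 -0.10, SE 0.18). Without both WT 2 and KO 3, Pdhb stood at log2 -0.33, Dlat at -0.13 and Pdhx at -0.01.

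The kinase genes held the member of smallest p. Pdk4, which encodes the kinase isoform known to be induced by fasting and fatty acids, was at 2326, 2677 and 1871 CPM in WT and 1397, 1362 and 1785 CPM in KO. All 3 KO libraries lay below all 3 WT libraries, and the difference was -0.60 on the log2 scale (SE 0.22). It did not pass over all genes (edgeR adjusted p = 0.388). Over the alternatives that log2 difference ran from -0.73 to -0.47 and its adjusted p from 0.165 to 0.646, negative in all of them. Pdk4 (ENSMUSG00000019577.6) lies on chromosome 6 from 5483351 to 5496309 on the minus strand (mm10). Pdk2, a widely expressed isoform, was at 303, 222 and 315 CPM in WT and 324, 313 and 391 CPM in KO. The groups overlapped, by KO 2 and WT 3 (log2 0.29, SE 0.20, edgeR adjusted p = 0.547), and the log2 fold change was 0.15 without WT 2. Pdk1, the isoform known as a target of the hypoxia factor HIF-1, was at 140, 83.8 and 94.3 CPM in WT and 79.9, 99.8 and 183 CPM in KO. The mean of KO rests on KO 3, and without it the log2 fold change of 0.19 (SE 0.31) became -0.24. Pdk3 was the gene of lowest level, with 8 to 50 counts per library, at 1.62, 0.534 and 1.47 CPM in WT and 1.46, 1.03 and 1.95 CPM in KO (log2 0.26, SE 0.49).

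Because the log2 fold changes of Pdk4 and Pdk2 differed in sign, with neither called, the kinase mix was compared within each library, a comparison chosen after the values were seen. Pdk4 made up 85.3%, 90.4% and 82.6% of kinase transcripts per kilobase in WT and 77.8%, 77.6% and 77.5% in KO. Pdk2 made up 12.3%, 8.32% and 15.4% in WT and 20.1%, 19.8% and 18.8% in KO. Groups did not overlap for either share, and non-overlap was seen in 19.5% of all tested single genes. The 2 shares make up nearly the whole and so mirror each other, and Pdk4 alone had already not overlapped. The KO libraries lay close together while the WT libraries spread. The log2 ratio of Pdk4 to Pdk2 in CPM was 3.03 (SD 0.52, n = 3) in WT and 2.14 (SD 0.045, n = 3) in KO, a difference of -0.89 that ranged from -1.12 to -0.61 with 1 library left out and was -0.64 without both WT 2 and KO 3. These ratios do not depend on the scaling between libraries, and no test was run on them. Summed over the 4 genes, kinase levels were 2771, 2984 and 2282 CPM in WT and 1802, 1776 and 2361 CPM in KO, with KO 3 above WT 3.

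**Figure D3:**
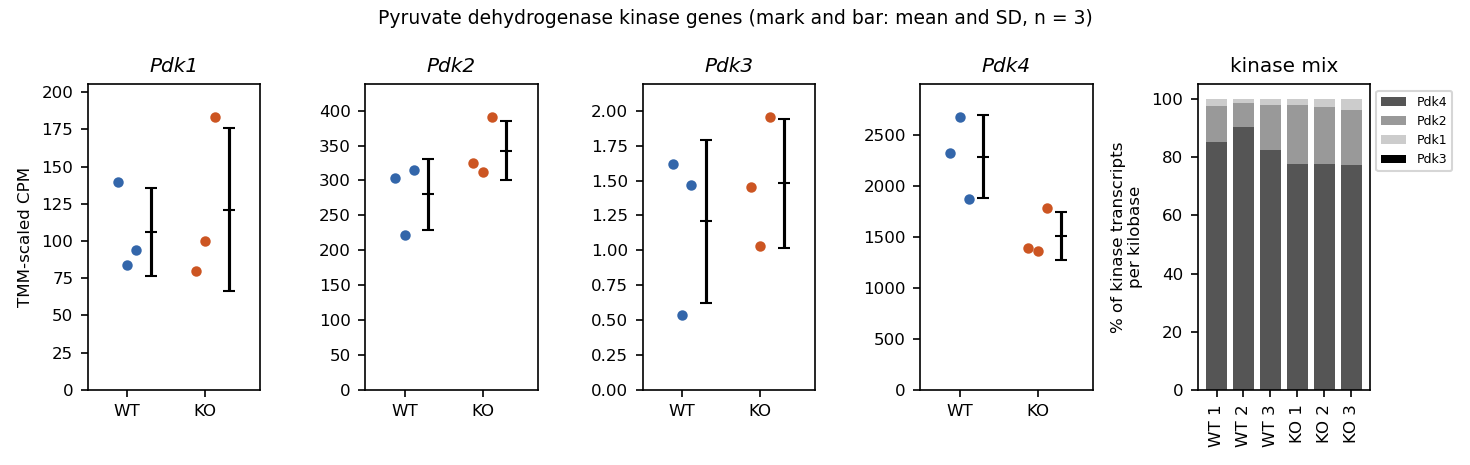
The first 4 panels show TMM-scaled CPM of each pyruvate dehydrogenase kinase gene per library (blue WT, orange KO) with the mean and SD of the group (n = 3); the last shows the share of each gene in kinase transcripts per kilobase for each library. Pdk4 points of KO lie below those of WT, and the dark Pdk4 bars end at 77.5% to 77.8% in KO and at 82.6% to 90.4% in WT; the Pdk3 share is too small to see.

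The phosphatase genes, whose products reactivate the complex, had 0 called members. Pdp2, the main phosphatase gene here, was at 82.1, 99.1 and 128 CPM in WT and 91.8, 128 and 121 CPM in KO (log2 0.14, SE 0.21). Pdpr, the regulatory subunit, was at 94.9, 69.7 and 95.9 CPM in WT and 84.3, 90.3 and 114 CPM in KO (log2 0.15, SE 0.19). Both pairs of groups overlapped broadly. Pdp1, the calcium-sensitive isoform, was far below Pdp2 per kilobase (1.78 against 19.0 CPM) and its KO minus WT log2 difference was -0.43 (SE 0.29).

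Pcx, the pyruvate carboxylase gene, had the highest log2 fold change of the set. It was at 341, 169 and 380 CPM in WT and 319, 423 and 768 CPM in KO. WT 2 was far below and KO 3 far above the other 4 libraries, which lay between 319 and 423 CPM and overlapped. The KO minus WT log2 difference was 0.76 (SE 0.37, edgeR adjusted p = 0.439), and it was 0.32 without KO 3 and 0.05 without both WT 2 and KO 3. It passed with no filter on low counts (edgeR adjusted p = 0.0376), where 27874 genes were tested. The median total degrees of freedom were 111496 in that fit, against 9.61 in the main fit. The adjusted p of Pcx over all alternatives ran from 0.0376 to 0.962, both from edgeR. Pcx (ENSMUSG00000024892.16) lies on chromosome 19 from 4510472 to 4621752 on the plus strand (mm10).

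Promoters are shown for Pdk4, the gene of smallest p, for Pdk2, the kinase gene set against it in the ratio above, and for Pcx, the gene of highest log2 fold change; none of the 3 was called. Windows run from 250 bases before to 50 bases after a RefSeq start site (GRCm38.p6) and were found for 31 of the 33 genes, 41 windows in all; Idh3a and Pdp1 had no window. Both strands were searched for TCAAGGTCA (estrogen-related receptors), the NRF1 motif, CCGGAAGT (GABP) and the E-box CACGTG. The core promoter element TATAAA was searched as well, and matches to any of these are in capitals. Pdk4 is at chr6:5496229-5496528 (minus strand), Pdk2 at chr11:95041322-95041621 (minus strand) and Pcx at chr19:4510222-4510521 (plus strand).
Pdk4: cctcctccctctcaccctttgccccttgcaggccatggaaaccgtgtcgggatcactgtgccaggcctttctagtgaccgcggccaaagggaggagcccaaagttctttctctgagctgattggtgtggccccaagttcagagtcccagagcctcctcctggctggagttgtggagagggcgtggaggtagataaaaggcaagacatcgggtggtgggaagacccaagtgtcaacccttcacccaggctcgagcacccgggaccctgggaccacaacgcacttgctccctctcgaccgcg
Pdk2: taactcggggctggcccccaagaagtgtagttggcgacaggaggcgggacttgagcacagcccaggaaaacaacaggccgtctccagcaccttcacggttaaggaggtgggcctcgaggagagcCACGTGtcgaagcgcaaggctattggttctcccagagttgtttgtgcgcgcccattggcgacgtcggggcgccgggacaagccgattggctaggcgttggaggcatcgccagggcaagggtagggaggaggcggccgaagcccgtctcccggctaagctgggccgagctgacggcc
Pcx: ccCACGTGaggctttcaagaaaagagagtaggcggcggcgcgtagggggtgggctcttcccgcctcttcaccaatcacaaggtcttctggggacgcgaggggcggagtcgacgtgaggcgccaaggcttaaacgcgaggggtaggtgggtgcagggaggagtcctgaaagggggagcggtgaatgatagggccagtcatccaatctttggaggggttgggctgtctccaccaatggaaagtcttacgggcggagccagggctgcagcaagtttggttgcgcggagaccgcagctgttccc
The printed Pdk2 and Pcx windows each hold 1 E-box. Both genes have 1 further window, at another start site, with 0 matches to the 5 motifs, and the Pdk4 window also holds 0. CACGTG was in 7 of the 41 windows (17.1%), from Ogdh, Pcx, Pdk2, Pdp2 and Pdpr, against 7.15% of all 32851 windows, and 3 of the 7 were alternative start sites of Ogdh. The Ogdh windows that start at 6292308 and 6292329 overlap and hold the same E-box, so that site was counted in each. TCAAGGTCA was in 0 of the 41, against 0.423% of all windows, the NRF1 motif in 2 (Dld and Sucla2; 4.88% against 4.6%), CCGGAAGT in 1 (Dlst; 2.44% against 3.89%) and TATAAA in 1 (Got2; 2.44% against 13.6%). A match describes letters in the window and not a bound site.

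Among the 12 matrix enzymes of the cycle, 0 passed the test, 6 had higher and 6 lower means in KO, and the median log2 fold change was 0.01. Ogdh, the E1 subunit of 2-oxoglutarate dehydrogenase, was at 2237, 1451 and 2434 CPM in WT and 2050, 2190 and 3196 CPM in KO. Cs, citrate synthase, which opens the cycle, was at 1888, 1326 and 1839 CPM in WT and 1924, 1811 and 2306 CPM in KO. In both genes WT 2 was lowest, KO 3 highest and the groups overlapped, and the log2 fold changes were 0.28 for Ogdh (SE 0.27) and 0.26 for Cs (SE 0.22). Without WT 2 they were 0.083 and 0.11. Mdh2, mitochondrial malate dehydrogenase, had log2 0.28 (SE 0.21) and Dlst, the E2 subunit of 2-oxoglutarate dehydrogenase, 0.23 (SE 0.19). Mdh2 is the 1 member on the chromosome of Pgam5, 25.5 Mb away.

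The subunits of NAD-dependent isocitrate dehydrogenase varied little. Mean CPM of Idh3a, the catalytic subunit, was 1543 (SD 123) for WT against 1493 (SD 42.8) for KO, that of Idh3b 1091 (SD 55.4) against 1055 (SD 49.5), and that of Idh3g 762 (SD 67.7) against 809 (SD 64.4), with n = 3 throughout. Per kilobase the 3 genes held near-equal shares of the summed transcripts, between 27.5% and 36.6% in every library. Idh2, the NADP-dependent mitochondrial enzyme, was at 375, 560 and 420 CPM in WT and 400, 357 and 303 CPM in KO. Only KO 1 and WT 1 overlapped, and the log2 fold change was -0.36 (SE 0.21, edgeR adjusted p = 0.501) and -0.17 without WT 2.

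Succinyl-CoA synthase joins the alpha subunit of Suclg1 to either an ADP-dependent beta subunit (Sucla2) or a GDP-dependent one (Suclg2). Sucla2 was at 1361, 2292 and 1679 CPM in WT and 1671, 1629 and 1374 CPM in KO, with WT 2 far above the rest (log2 -0.19, SE 0.24). Suclg2 was the steadiest gene of the set, at 127, 126 and 127 CPM in WT and 130, 127 and 136 CPM in KO (log2 0.04, SE 0.15). Sucla2 made up 92.1% to 95.5% of beta subunit transcripts per kilobase. Suclg1 had log2 -0.14 (SE 0.18) and Fh1, fumarase, -0.03 (SE 0.18). A pseudogene of Suclg2, Gm15163, held 5.7% as many counts as the gene.

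Of the 6 cytosolic partners and glutamate and aspartate enzymes, 0 passed the test, and 5 had higher means in KO. Mdh1, cytosolic malate dehydrogenase, was at 600.5, 575 and 597 CPM in WT and 570, 588 and 708 CPM in KO, and KO 3 alone stood out (log2 0.07, SE 0.18). Glud1, glutamate dehydrogenase, was at 239, 270 and 276 CPM in WT and 307, 275 and 247 CPM in KO, with groups fully interleaved (log2 0.08, SE 0.17). Aco1, the cytosolic aconitase that also acts as an iron regulatory protein, had log2 0.46 (SE 0.24, edgeR adjusted p = 0.463) and Idh1, the cytosolic NADP-dependent isocitrate dehydrogenase, 0.24 (SE 0.19).

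Got2 and Got1, the mitochondrial and cytosolic aspartate aminotransferases of the malate-aspartate shuttle, were both at low levels. Got2 was at 26.6, 35.3 and 24.5 CPM in WT and 20.4, 24.8 and 15.3 CPM in KO. Only WT 3 and KO 2 overlapped, and KO minus WT was -0.51 in log2 units (SE 0.22, edgeR adjusted p = 0.422). It was -0.34 without WT 2, -0.34 without KO 3 and -0.17 without both. Got1 had log2 0.22 (SE 0.20), at 14.0 to 20.8 CPM in WT and 18.4 to 23.1 CPM in KO. Copies of Got2 that match at 98.8% or more, Got2-ps1 and Gm10874, held 3 and 2 counts in all. How reads that match several places were counted is not given in the sources used here, so the level of Got2 is uncertain. Got2 (ENSMUSG00000031672.8) lies on chromosome 8 from 95864134 to 95888547 on the minus strand (mm10).

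Ratios of paired genes within a library compare transcript levels only, between compartments, branches, subunits or regulators. For Got1 to Got2 the log2 ratio in CPM was -0.93, -0.76 and -0.54 in WT and -0.15, -0.42 and 0.59 in KO. For Pcx to Pdha1, the entries of pyruvate by carboxylation and by oxidation, it was -1.89, -2.76 and -1.57 in WT and -1.49, -1.19 and -0.91 in KO. In both ratios the groups did not overlap, and KO minus WT was 0.75 and 0.88 in the mean. Of single genes, 19.5% of all tested had groups that did not overlap in either direction, and no test was run on the ratios. Without both WT 2 and KO 3 the differences were 0.45 and 0.39. The other 5 ratios overlapped between groups: the KO minus WT differences were 0.57 for Idh1 to Idh2, -0.21 for Mdh1 to Mdh2, -0.21 for Sucla2 to Suclg2, -0.55 for summed kinases to summed Pdp1 and Pdp2, and -0.21 for Mpc1 to Mpc2. Single libraries moved several of these: without WT 2 Mdh1 to Mdh2 stood at -0.097, Sucla2 to Suclg2 at -0.00036 and Mpc1 to Mpc2 at -0.41, and without WT 1 Mpc1 to Mpc2 stood at -0.054.

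**Figure D4:**
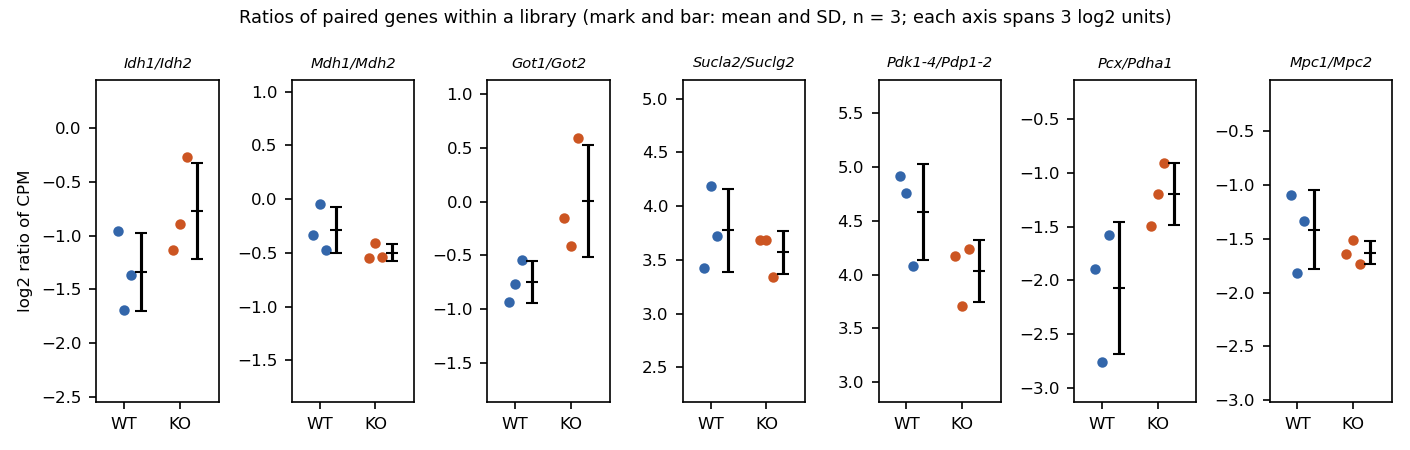
Log2 ratio of CPM of paired genes within each library (blue WT, orange KO), with the mean and SD of each group (n = 3) beside the points; every vertical axis spans the same number of log2 units. The groups separate for Got1/Got2 and Pcx/Pdha1 and overlap for the other 5 ratios.

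Within the set the extreme libraries were often WT 2 and KO 3, which differ in genotype. How much of the spread lay between single libraries and how much between genotypes was not tested. In 15 of the 33 genes (45.5%) WT 2 was the lowest and KO 3 the highest of the 6 libraries, against 13.7% of all tested genes: Mpc2, Pdhb, Dlat, Pdhx, Pdk2, Pdk3, Pdpr, Pcx, Cs, Idh3g, Ogdh, Dlst, Suclg2, Mdh2 and Aco1. The opposite order held for 3 genes (9.09%), Pdp1, Idh2 and Got2, against 14.0% of all tested genes. KO 3 lay above the mean of KO 1 and KO 2 by a median of 0.30 on the log2 scale over the set, and by 0.0020 over all tested genes. WT 2 lay below the mean of WT 1 and WT 3 by most in Pdk3 (-1.39), Pcx (-1.09) and Mpc1 (-0.86), and above it by most in Sucla2 (0.60) and Idh2 (0.50). WT 2 and KO 3 also had the highest and the lowest share of mitochondrial genome counts, respectively, and the lowest and the highest summed endothelial markers (246 and 678 CPM). Tie1, Kdr and Cdh5 were lowest in WT 2 and highest in KO 3, while Pecam1 was lowest in KO 1 (82.6 CPM). The sums of white adipocyte markers (227 and 68.8 CPM) and of macrophage markers (115 and 53.2 CPM) were highest in WT 2 and lowest in KO 3. Among single white adipocyte and macrophage markers, Npr3, Lep and Lyz2 had this order. Slc7a10, a white adipocyte marker, had the opposite one, with 0.40 CPM for WT 2 and 3.66 CPM for KO 3. Retn, Mrc1, Adgre1, Cd68 and Csf1r had neither order, and Csf1r was lowest in WT 2 (8.67 CPM). Among the adipocyte markers given first, Fabp4, Adipoq and Cox7a1 were highest in WT 2 and lowest in KO 3. Ucp1 and Plin1 had the opposite order, and Cidea, Prdm16, Ppargc1a and Pparg had neither. The part of any of these in the values above was not tested. Without both libraries, 14 of the 33 log2 fold changes were positive and their median was -0.04; the edgeR count stayed at 0.

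**Figure D5:**
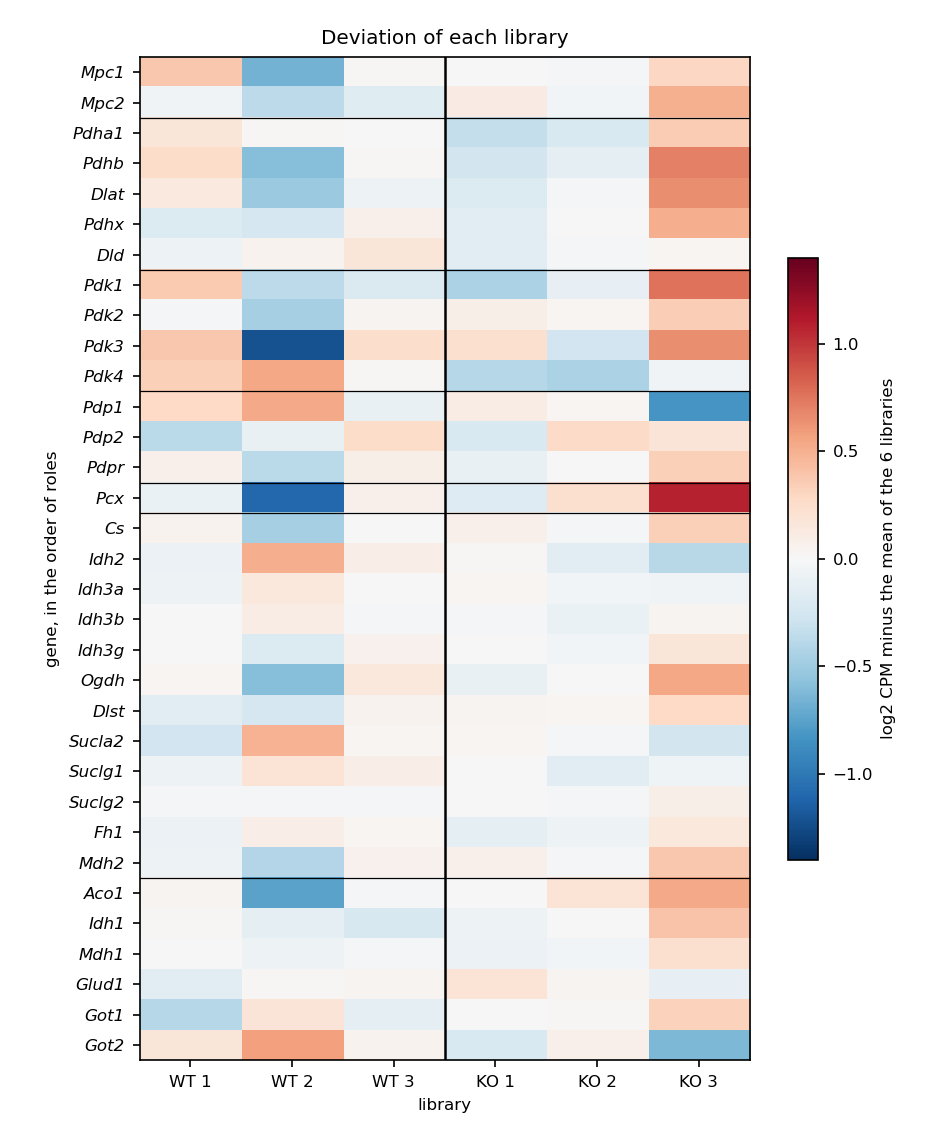
Log2 CPM of each gene in each library minus its mean over the 6 libraries, from blue (below) to red (above), with genes in the order of roles and lines between roles. Blue in WT 2 and red in KO 3 recur from Mpc2 to Aco1, with the deepest blue in Pdk3 and the deepest red in Pcx, while Idh2, Sucla2 and Got2 are red in WT 2 and blue in KO 3.

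A second list held 27 further genes of the pathway, among them succinate dehydrogenase subunits, malic enzymes, lipoate enzymes and carriers of cycle intermediates. Of the 26 that passed the filter, 0 were called, 18 had positive log2 fold changes and the median was 0.14; Ogdhl did not pass it. At an unadjusted edgeR p under 0.05 there were 3, against 11.8% of all tested genes. Slc25a22, a mitochondrial glutamate carrier, was at 73.7, 51.8 and 75.5 CPM in WT and 101, 121 and 194 CPM in KO, without overlap (log2 1.05, SE 0.26, edgeR adjusted p = 0.309). Of all tested genes, 10.1% likewise lay above WT in every KO library. Slc25a10, the dicarboxylate carrier, had log2 0.71 (SE 0.28, edgeR adjusted p = 0.4) and Pck2, mitochondrial phosphoenolpyruvate carboxykinase, -0.45 (SE 0.19, edgeR adjusted p = 0.419). Acly, which splits exported citrate to make acetyl-CoA for fatty acid synthesis and is named after its values were seen, was at 1226, 190.04 and 343 CPM in WT and 357, 409 and 4138 CPM in KO. WT 2 was again lowest and KO 3 highest, and the KO minus WT difference of 1.48 in log2 units (SE 0.95, edgeR adjusted p = 0.523) was not called.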

How the data were processed

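Poly(A) RNA libraries of interscapular brown fat labelled WT (3 libraries) and KO (3 libraries) were compared; 1 further KO sample was not analysed here. The deposited table holds unnormalized counts, 1 whole number per gene and library. The submitters' processing notes name mm10 as the build, HISAT2 2.1.0, featureCounts 1.6.2 and DESeq2, without their roles; for the annotation, strand setting and treatment of multiply mapped reads, nothing is given in the sources used here. Symbols, positions and exon lengths came from GENCODE M 21 (same build), which matched 53620 of 53715 identifiers. Exons of 6 members overlap another gene, whose counts were at most 9.09% of the member's. Near-identical copies were sought with megablast among GENCODE transcripts (95% identity over 300 bases) and found for 5 members.

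filterByExpr (minimum count 10, total 15) left 15123 genes. KO was compared with WT by edgeR's quasi-likelihood test (edgeR 4.0.16, R 4.3.3) after TMM scaling, with Benjamini-Hochberg adjustment over all genes and genotype as the only term. The labels name 4 KO samples, and the comparison was set to the libraries that have a column in the count table. Log2 CPM used a prior count of 2; alternatives used DESeq2 1.42.0 and limma 3.58.1. The test was also run on simulated counts, drawn gene by gene without deviations shared within a library. That run does not bear on shared deviations such as those of WT 2 and KO 3. The limit that 3 counts give lay between 0.0892 and 0.166 CPM, for counting error only. The members, lists and tests were chosen with earlier results of these data known. Values per library are given for members with an unadjusted p under 0.05 or no overlap, the 2 highest of each role and all kinases; those of Idh2, Sucla2 and Suclg2, the ranges of Dld and Got1, the counts of Pdk3 and the kinase mix were chosen after the values were seen. Promoter sequences are from RefSeq (GRCm38.p6).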

Additional observations from a re-analysis of the deposited data

How the results depend on the processing

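The 33 genes were recomputed under 15 alternatives. No member was called under any except the fit with no filter, which called 1 member, Pcx, higher (330 genes higher and 333 lower in all). Over all genes DESeq2 gave 85 higher and 82 lower, voom with sample quality weights 10 and 11, the replicate block 1 higher, an adjusted p of 0.1 5 higher, and leaving out both WT 2 and KO 3 14 and 13. With 1 library left out edgeR called 0 to 9 higher and 0 to 9 lower genes (9 and 8 without WT 2, 3 and 9 without WT 1, 1 and 6 without WT 3, 0 and 1 without KO 1, 0 and 0 without KO 2, with 1482 genes at an unadjusted p under 0.05, and 1 and 5 without KO 3), and 0 to 3 members had an unadjusted p under 0.05. That count was 1 with limma-voom, with quality weights and with the stricter filter, and 4 with no filter. The replicate block called 0 members. Same-numbered libraries correlated at -0.11, 0.10 and 0.091 in their deviations from the group means, and differently numbered ones at -0.26 to 0.25. With 3 libraries in each group, these values cannot decide whether the numbers pair the samples. The median log2 fold change of the set was -0.037 without both WT 2 and KO 3 and ran from 0.0073 to 0.24 with 1 library left out. Of the 33 genes 19 kept their sign throughout. With quality weights the sign turned for Mpc1 (-0.025), Pdhb (-0.069), Pdk1 (-0.13) and Pdk3 (-0.11). Without both WT 2 and KO 3 Pdha1 reached an unadjusted p under 0.05 (-0.36) and the sign turned for Mpc1 (-0.23), Pdhb (-0.33), Dlat (-0.13), Pdhx (-0.014), Pdk1 (-0.38), Pdk3 (-0.31), Pdpr (-0.12), Idh3a (0.036), Idh3g (-0.047), Ogdh (-0.14), Sucla2 (0.12) and Mdh1 (-0.046), and the ratio Sucla2 to Suclg2 was 0.12, Idh1 to Idh2 0.15 and Pcx to Pdha1 0.39. With 1 library left out, KO minus WT in the log2 ratios ran from 0.32 to 0.76 for Idh1 to Idh2, 0.54 to 1.13 for Pcx to Pdha1, 0.46 to 0.97 for Got1 to Got2, -0.41 to -0.054 for Mpc1 to Mpc2, -0.31 to -0.097 for Mdh1 to Mdh2, -0.38 to -0.00036 for Sucla2 to Suclg2 and -0.80 to -0.38 for kinases to phosphatases. Log2 fold changes then ran from 0.025 to 0.49 for Dlat, 0.041 to 0.40 for Pdhx, 0.0073 to 0.24 for Pdpr, 0.23 to 0.51 for Mpc2, 0.25 to 0.60 for Aco1, -0.47 to -0.17 for Idh2, 0.11 to 0.35 for Cs, 0.055 to 0.43 for Ogdh, 0.15 to 0.38 for Mdh2 and for Pdk2, -0.12 to 0.37 for Mpc1, -0.066 to 0.50 for Pdk3, -0.094 to 0.016 for Idh3a, -0.35 to 0.035 for Sucla2, -0.11 to 0.037 for Fh1, -0.34 to 0.038 for Pdha1, -0.13 to 0.43 for Pdhb, -0.24 to 0.44 for Pdk1 and -0.030 to 0.14 for Mdh1. The cause of these turns was not tested.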
